A study of Homo sapiens with 6 samples.

Results

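Of the 6357 loci in the expression table of FN3K KO and WT HepG2 cells, 65 carry the symbol of a cell cycle or DNA replication gene. They were chosen by symbol alone, as loci whose names belong to families such as MCM, ORC, GINS, RFC, POLD, POLE, PCNA, CCN, CDK, CDKN, E2F, CDC, CENP, NCAP, TOP2 and KIF, and the rule used no measured value, although it was set with earlier results of these data known. By known role, 48 of them belong to DNA replication or to the cycle itself, 5 are cyclin-dependent kinases of transcription or other roles, 2 are kinesins of cargo transport, and 10 match by the letters of their name only, such as CDC42 and its effectors. HepG2 is a human liver tumour line, and FN3K is the kinase that helps to remove sugars bound to the amines of proteins. The WT group was HepG2 without the knockout, and the FN3K KO group was HepG2 in which FN3K had been inactivated by CRISPR. Each group gave 3 RNA libraries from plates of cells grown in the same medium with serum and without a drug or synchronisation step named in the sources used here. How many edited clones stood behind the 3 KO plates is not given in the sources used here, so the p-values measure the spread between these plates, and a difference between the genotypes and a difference between clones cannot be told apart.

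A dividing cell copies its DNA once per cycle. In G1, ORC and the MCM ring are loaded at origins, cyclin D with CDK4 or CDK6 releases E2F factors from their RB-type partners, and E2F targets supply the replication fork with helicase, clamp and deoxynucleotides. In G2 and mitosis another set of genes, which includes cyclin B, CDC20, centromere proteins, condensin and topoisomerase II, is transcribed through CHR and CCAAT elements. Adult hepatocytes divide little, whereas tumour lines such as HepG2 divide continuously in culture. In RNA from whole cultures, fewer cells in a phase of the cycle and less RNA per cell in that phase cannot be told apart, and this applies to each level below.

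FN3K itself had 27.7, 21.9 and 23.2 FPKM (mapped fragments divided by transcript length and library size, a level per length) in the WT libraries and 0.782, 1.03 and 0.704 FPKM in the KO libraries. Summed FPKM lay between 289983 and 314164 over the 6 libraries, and the read depth behind them is unknown because the table holds no counts. Of 11 hepatocyte markers 9 were listed by name (ALB and APOA2 were not), and 5 were higher and 1 (HNF4A) lower in KO. Their summed level was 10833 to 10960 FPKM in WT and 17269 to 18338 FPKM in KO. Much of this rise lay in AFP (means of 1537 FPKM in WT and 6206 in KO) and APOA1 (1516 and 3339). SERPINA1, TF and AHSG did not pass. The 6 fibroblast and 4 endothelial markers were not listed by name here, and of 5 leukocyte markers the 1 listed, CD14, had a mean of 1.63 FPKM in WT and 14.5 FPKM in KO. Whether the change in hepatocyte genes had a part in the results below was not tested.

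As a set, the 65 genes moved about as often as any other loci. With limma on log2(FPKM + 1) and Benjamini-Hochberg adjustment over all loci, 15 genes were higher in KO at an adjusted p under 0.05, or 23.1% of the set, where 21.2% of all loci were higher. Another 25 were lower, or 38.5%, where 36.5% of all loci were lower, and 25 did not pass. Every KO library lay above every WT library for 16 genes and below for 27, where 23.6% of all loci were above and 39.8% below. The median log2 fold change of the set was -0.17, and that of all loci was -0.14. Fold limits were rarely reached, since 2 genes (MCM6 and E2F6) passed a log2 fold change beyond 1 in size at an unadjusted p under 0.05, and 7.63% of all loci did. Summed over the 65 genes, FPKM was 1076 ± 32.7 in WT and 1006 ± 17.6 in KO (SD, n = 3). Annotated exons of another gene on either strand overlap 29 of the 65 genes, among them CCND1, CDK4, CDK6, CDK5, E2F5, MCM2, NCAPD2, POLE3, RRM1, TOP2B and TYMS, and since strand was not stated, reads from such partners cannot be told apart from theirs.

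Genes of different roles were found on both sides. The 5 listed MCM subunits, GINS1, PCNA, TK1, RRM1 and CCND1 were higher in KO, and CDK4, CDK6, E2F4, E2F5, E2F6, CCNB2, CDC20 and NCAPD2 were lower. Among the 48 genes of replication and of the cycle, 11 were higher (22.9%) and 17 lower (35.4%), with a median log2 fold change of -0.13, again near the shares and the median of all loci. Of 14 role classes 4 had a median above 0, and the licensing and helicase class (0.36) and the deoxynucleotide class (0.62) had the highest of these. The number depends on the model. When the default library covariate of Ballgown, the tool named in the methods of the study, was put in a linear model, 9 genes were called higher and 3 lower, against 606 loci higher and 521 lower in the whole table. This library adjustment has 1 value per library, which lay between 15316 and 15764 in WT and between 15081 and 15342 in KO, so the ranges overlapped by 1 library of each group.

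**Figure D1:**
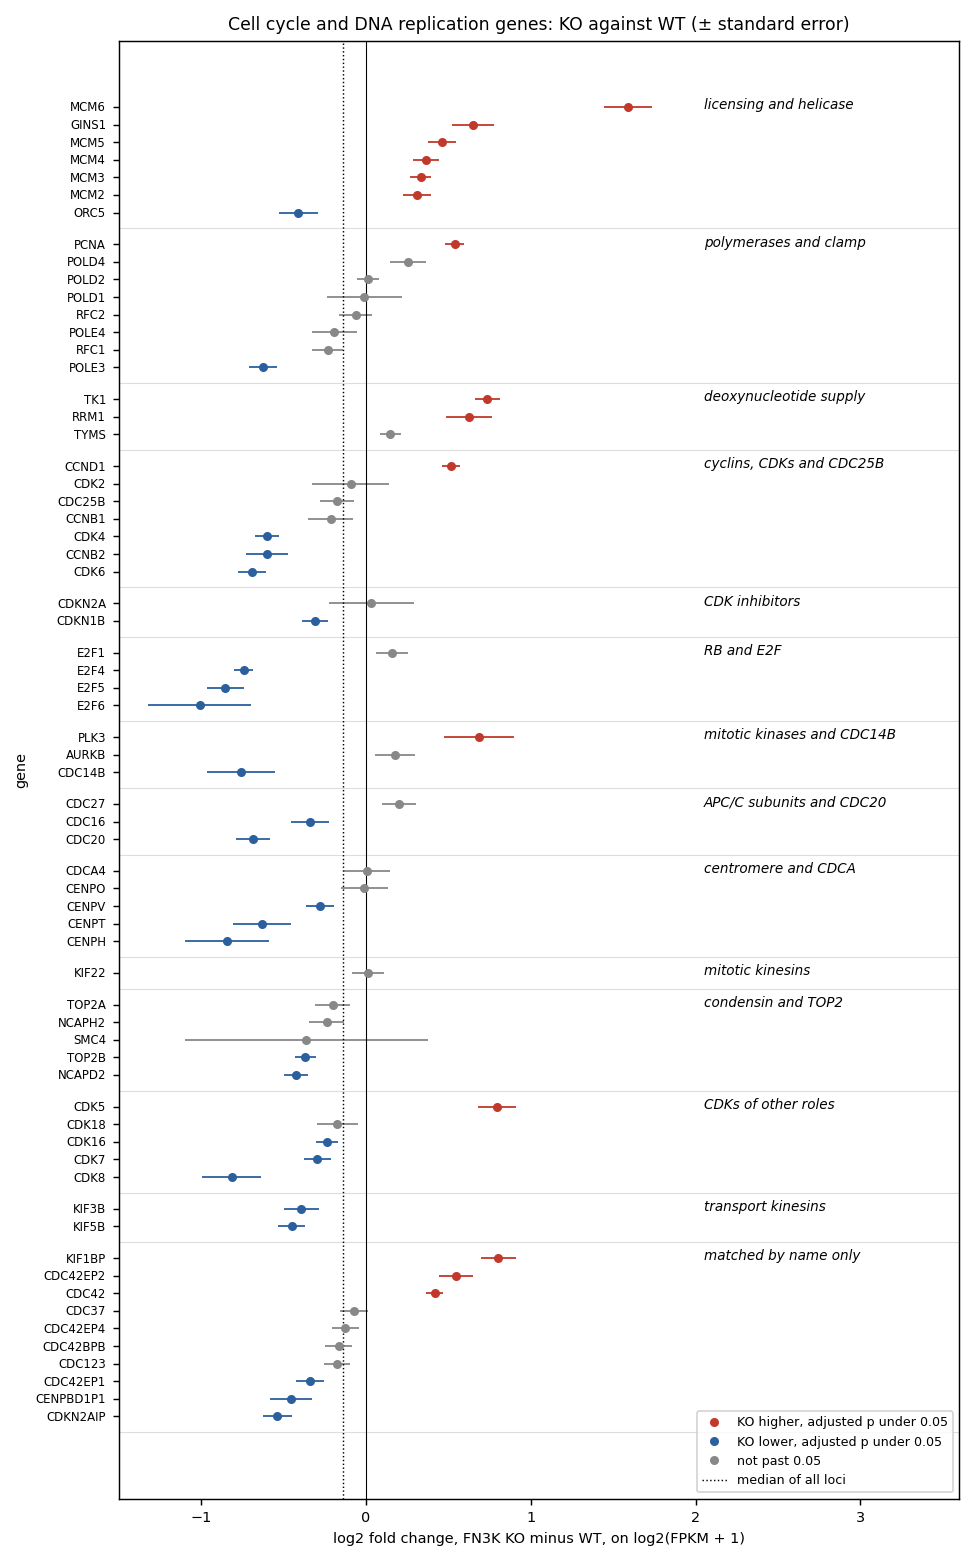
Log2 fold change (KO minus WT on log2(FPKM + 1)) of each of the 65 genes with its standard error, grouped by role and coloured by the limma call. The licensing and helicase genes lie to the right except ORC5 at -0.41, MCM6 stands farthest right at 1.59, and E2F6 farthest left at -1.01; the dotted line is the median of all loci at -0.14.

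The replicative helicase was the clearest block of higher genes. MCM2 to MCM7 form the ring that unwinds DNA at the fork, and 5 of its 6 subunits were listed, while MCM7 is missing from the names listed. MCM6 had 1.48, 1.72 and 1.71 FPKM in the 3 WT libraries and 7.36, 6.75 and 6.66 FPKM in the 3 KO libraries. No library of either group came near the other, and the ratio of the mean levels was 4.23 (log2 fold change 1.59, standard error 0.15, limma adjusted p = 3.4e-05). MCM5 had 6.27, 6.66 and 6.32 FPKM in WT and 9.04, 9.28 and 9.32 FPKM in KO (log2 fold change 0.46, standard error 0.08, limma adjusted p = 0.0017). MCM4 went from 11.2, 11.3 and 11.4 to 15.1, 13.5 and 15.8 FPKM (log2 fold change 0.36, standard error 0.08, limma adjusted p = 0.0037). MCM3 went from 16.5, 16.9 and 15.2 to 20.5, 21.0 and 20.6 FPKM (log2 fold change 0.33, standard error 0.06, limma adjusted p = 0.0023). In each of these 4 subunits the lowest KO library was above the highest WT library. MCM2 also had no overlap, with 8.57, 8.88 and 7.97 FPKM in WT and 10.4, 11.6 and 10.2 FPKM in KO (log2 fold change 0.31, standard error 0.09, limma adjusted p = 0.014), but it was no longer past 0.05 without WT replicate 3 (log2 fold change 0.27, limma adjusted p = 0.051).

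Summed over the 5 listed subunits, the level was 44.0, 45.5 and 42.6 FPKM in WT and 62.4, 62.2 and 62.6 FPKM in KO. MCM6 was by far the scarcest subunit in WT, at 0.172, 0.194 and 0.214 times the level of MCM2 in the 3 libraries. In KO it stood at 0.708, 0.583 and 0.651 times MCM2. The highest mean level among the 5 subunits was 9.91 times the lowest in WT and 2.99 times in KO, both with MCM3 at the top and MCM6 at the bottom. The annotation shows no other gene whose exons overlap MCM6 (chromosome 2 from 135839626 to 135876426 on GRCh38).

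GINS1, a subunit of the GINS complex that joins the MCM ring to the moving fork, had 3.05, 3.46 and 3.42 FPKM in WT and 5.94, 5.99 and 5.38 FPKM in KO (log2 fold change 0.65, standard error 0.13, limma adjusted p = 0.0025). ORC5, part of the origin recognition complex that marks where the ring is loaded, moved the other way, from 6.76, 5.62 and 6.64 to 4.59, 4.72 and 4.23 FPKM (log2 fold change -0.41, standard error 0.12, limma adjusted p = 0.016). Its call was lost without WT replicate 3 (-0.38, adjusted p = 0.056). The licensing and helicase class of 7 listed genes, of 22 in the class, thus held 6 higher genes (85.7%, against 21.2% of all loci). ORC5 was the 1 lower gene. Under the Ballgown covariate MCM5, MCM6 and GINS1 were still called higher, while MCM2, MCM3, MCM4 and ORC5 were not called.

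The sliding clamp and the enzymes of thymidine and ribonucleotide conversion rose beside the helicase. PCNA, the clamp that holds polymerases on DNA, had 52.9, 54.6 and 50.7 FPKM in WT and 79.9, 72.0 and 79.1 FPKM in KO (log2 fold change 0.54, standard error 0.06, limma adjusted p = 9.8e-05). It was the most abundant replication gene of the set in both groups. TK1, thymidine kinase of S phase, went from 8.07, 7.56 and 8.15 to 13.3, 14.4 and 13.9 FPKM (log2 fold change 0.74, standard error 0.08, limma adjusted p = 6.4e-05). RRM1, the large subunit of ribonucleotide reductase, went from 3.44, 4.90 and 3.55 to 6.74, 6.80 and 6.24 FPKM (log2 fold change 0.62, standard error 0.14, limma adjusted p = 0.0051). Groups did not overlap in any of these 3 genes. With the library adjustment of Ballgown TK1 was still called, and PCNA (0.45, adjusted p = 0.057) and RRM1 (0.72, adjusted p = 0.14) were not. TYMS, which makes thymidylate, had 28.2, 28.9 and 26.3 FPKM in WT and 28.9, 32.0 and 31.8 FPKM in KO (log2 fold change 0.15, standard error 0.07, limma adjusted p = 0.080), and its lowest KO library lay among the WT libraries. It did pass when each library was centred on the median of all loci (0.22, adjusted p = 0.023).

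Most genes of the polymerases and the clamp loader did not pass the test. Of 8 listed genes of the polymerase, clamp and clamp loader class, PCNA was higher (12.5%) and POLE3 was lower (12.5%). The other 6 did not pass, with log2 fold changes from -0.23 (RFC1) to 0.26 (POLD4). Over all loci 21.2% were higher and 36.5% lower, and 2687 of 6357 did not pass. POLE3, a histone-fold subunit of DNA polymerase epsilon that also serves in chromatin remodelling, had 14.5, 14.8 and 14.1 FPKM in WT and 9.54, 9.49 and 8.10 FPKM in KO (log2 fold change -0.62, standard error 0.08, limma adjusted p = 0.00030), with no overlap. POLD1, the catalytic subunit of polymerase delta, had 5.69, 5.43 and 2.92 FPKM in WT and 4.14, 5.72 and 3.79 FPKM in KO, so both groups spanned the same range. POLD2 had a mean of 26.1 ± 1.55 FPKM in WT and 26.3 ± 1.16 in KO (SD, n = 3), which differed by 0.01 on the log2 scale (standard error 0.07). POLE4 had a log2 fold change of -0.19 and RFC2 one of -0.06, neither past 0.05. POLD4, a small accessory subunit of polymerase delta, had 12.3, 15.5 and 17.1 FPKM in WT and 17.1, 18.6 and 18.0 FPKM in KO (log2 fold change 0.26, standard error 0.11, limma adjusted p = 0.070), and it was called higher with the library adjustment of Ballgown (0.57, adjusted p = 0.044) and with centring (0.33, adjusted p = 0.013).

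**Figure D2:**
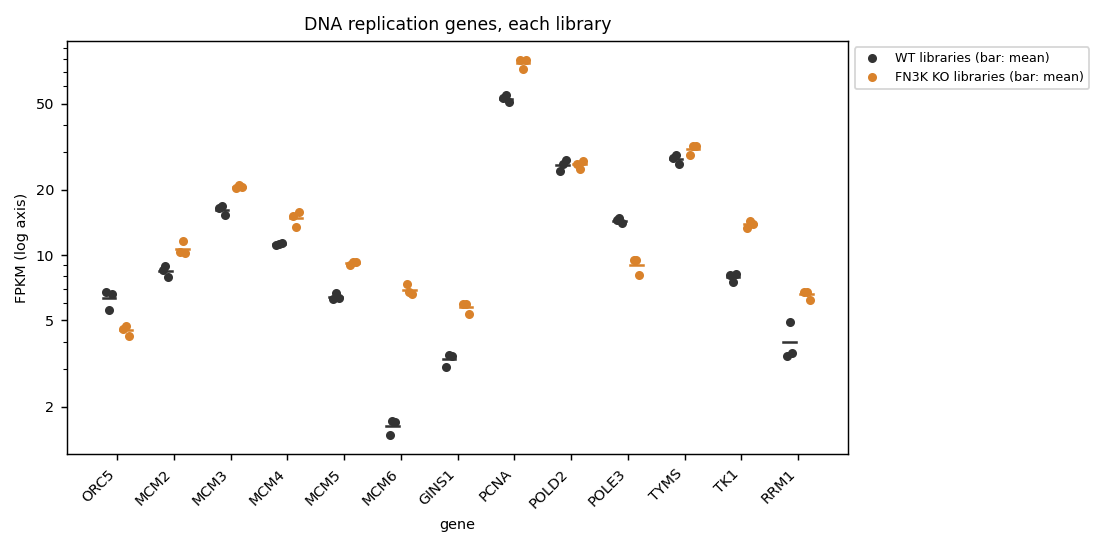
FPKM on a log axis of 13 replication genes in the 3 WT and 3 KO libraries, with bars at the means. KO points lie above WT points for MCM2 to MCM6, GINS1, PCNA, TK1 and RRM1, below them for ORC5 and POLE3, and among them for POLD2.

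The promoters of 3 of these higher genes are shown because E2F factors are known to drive genes of S phase. Each is the 250 bases before the transcription start nearest to the listed transcript, from RefSeq on GRCh38.p14. Capitals mark E2F letters (TTTGGCGC, TTTCCCGC, TTTCGCGC or TTTGCCGC), CHR letters (TTTGAA or TTCGAA) and CCAAT, each searched on both strands.
MCM6, chr2:135876444-135876693, minus strand: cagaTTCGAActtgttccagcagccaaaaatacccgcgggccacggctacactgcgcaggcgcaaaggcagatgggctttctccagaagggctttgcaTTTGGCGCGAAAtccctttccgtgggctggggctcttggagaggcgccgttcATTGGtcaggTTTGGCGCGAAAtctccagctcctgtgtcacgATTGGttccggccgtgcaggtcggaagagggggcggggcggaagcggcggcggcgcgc
PCNA, chr20:5119959-5120208, minus strand: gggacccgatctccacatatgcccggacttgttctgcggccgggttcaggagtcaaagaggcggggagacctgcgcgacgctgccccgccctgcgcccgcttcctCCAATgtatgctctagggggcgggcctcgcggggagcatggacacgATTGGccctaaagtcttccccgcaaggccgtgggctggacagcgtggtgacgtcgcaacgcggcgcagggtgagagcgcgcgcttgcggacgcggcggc
TK1, chr17:78187205-78187454, minus strand: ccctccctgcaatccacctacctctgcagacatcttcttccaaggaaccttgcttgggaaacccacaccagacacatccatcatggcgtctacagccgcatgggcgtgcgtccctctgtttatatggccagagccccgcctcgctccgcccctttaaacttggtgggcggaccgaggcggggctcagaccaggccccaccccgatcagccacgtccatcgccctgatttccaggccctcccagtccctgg
The MCM6 window held E2F letters at bases 152 to 141 and again at bases 90 to 79 before the start, at each place on both strands with overlap. It also held CCAAT at bases 100 to 96 and 58 to 54, and CHR letters at bases 246 to 241. PCNA held CCAAT at bases 145 to 141 and 99 to 95, and TK1 held none of these exact letters in this window, which says nothing about the factors.

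Windows were matched for 56 of the 65 genes. In 46 of these the start used lay within 200 bases of the start of the listed transcript, and that of CENPT lay farthest, 13796 bases away. E2F letters were present in 7 of the 56 windows (12.5%), against 2.79% of 35116 RefSeq windows and 4.27% of the 5386 windows of loci named in the table. The 7 genes were MCM3 and MCM6, which were higher, CDC16, which was lower, and CDC37, E2F1, POLE4 and TYMS, which did not pass. CCAAT was present in 29 (51.8%), against 32.0% of RefSeq windows and 33.6% of the windows of loci named in the table. CHR letters were present in 12 (21.4%), against 14.3% and 9.51%. Each of the 56 genes gave 1 window. The shares set against them count every RefSeq window, so a gene with several starts enters more than once. Within the genes of replication and of the cycle, E2F letters stood in 2 of 8 windows of higher genes and in 1 of 15 windows of lower genes. They also stood in 3 of 18 windows of genes that did not pass. The higher genes CCND1, MCM4 and MCM5 had no matched window. Such short letters are a description of the sequence and not sites of binding.

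The drivers of the G1 to S step moved against each other. CCND1, cyclin D1, had 27.2, 26.9 and 27.7 FPKM in WT and 38.5, 41.0 and 38.8 FPKM in KO (log2 fold change 0.52, standard error 0.05, limma adjusted p = 6.7e-05). Its kinase partners were lower. CDK4 had 62.5, 70.9 and 68.9 FPKM in WT and 45.2, 47.1 and 40.4 FPKM in KO (log2 fold change -0.60, standard error 0.07, limma adjusted p = 0.00018). CDK6 had 15.1, 14.2 and 14.1 FPKM in WT and 8.61, 9.37 and 7.80 FPKM in KO (log2 fold change -0.69, standard error 0.08, limma adjusted p = 0.00018). None of the 3 genes had groups that overlapped, and the mean level of CDK4 fell from 2.47 to 1.12 times that of CCND1, while it was 4.66 and 5.15 times that of CDK6. The library adjustment of Ballgown kept the call of CCND1 (0.56, adjusted p = 0.020) and not those of CDK4 (-0.45, adjusted p = 0.091) and CDK6 (-0.69, adjusted p = 0.067). CDK2, the kinase of cyclins E and A, had 4.49, 5.28 and 2.73 FPKM in WT and 4.06, 4.60 and 2.75 FPKM in KO, a range shared by both groups (log2 fold change -0.09, standard error 0.23, limma adjusted p = 0.75).

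CDKN1B, the inhibitor p27 that binds cyclin and CDK complexes, had 20.9, 21.1 and 24.1 FPKM in WT and 16.3, 18.6 and 17.9 FPKM in KO (log2 fold change -0.31, standard error 0.08, limma adjusted p = 0.0090), with no overlap. CDKN2A, a locus that encodes p16 and ARF, varied by more within the groups than between them, from 2.78 to 4.69 FPKM in WT and from 2.16 to 4.50 FPKM in KO (log2 fold change 0.03, standard error 0.26, limma adjusted p = 0.92). CDKN1A, RB1, CCNE1, CCNA2 and CDK1 are not among the names listed, so the cyclin E and cyclin A steps were not analysed here. CDC25B, a phosphatase that activates CDKs, had means of 9.17 ± 1.13 FPKM in WT and 7.98 ± 0.365 in KO (SD, n = 3) and did not pass (log2 fold change -0.17, standard error 0.10, limma adjusted p = 0.18). Its listed transcript is annotated as a processed transcript without a coding frame.

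The E2F factors that mainly repress were lower, and the activator E2F1 did not pass. E2F4, the main E2F of resting cells and of the DREAM complex, had 45.8, 48.7 and 49.2 FPKM in WT and 27.3, 28.4 and 28.99 FPKM in KO (log2 fold change -0.74, standard error 0.06, limma adjusted p = 1e-05). E2F5, its closest relative, had 7.41, 8.29 and 8.58 FPKM in WT and 3.99, 4.39 and 3.72 FPKM in KO (log2 fold change -0.85, standard error 0.11, limma adjusted p = 0.00029). E2F6, which represses through Polycomb-type complexes, had 2.51, 2.77 and 2.14 FPKM in WT and 1.27, 0.581 and 0.424 FPKM in KO (log2 fold change -1.01, standard error 0.31, limma adjusted p = 0.022). In each of the 3 factors the KO libraries all lay below the WT libraries. The spread of E2F6 was the widest, and its call was lost without WT replicate 1 (adjusted p = 0.052) or WT replicate 2 (adjusted p = 0.064). The summed level of the 3 factors was 55.7, 59.8 and 59.9 FPKM in WT and 32.5, 33.4 and 33.1 FPKM in KO.

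E2F1, the activator of S phase genes, had 10.4, 9.13 and 9.44 FPKM in WT and 10.3, 12.4 and 10.1 FPKM in KO, and the groups overlapped (log2 fold change 0.16, standard error 0.10, limma adjusted p = 0.20). Its share of the summed level of the 4 listed E2F genes was 14.2% in WT and 24.9% in KO, while that of E2F4 was 70.3% and 64.2%. E2F4 and E2F5 were also called lower with the library adjustment of Ballgown.

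**Figure D3:**
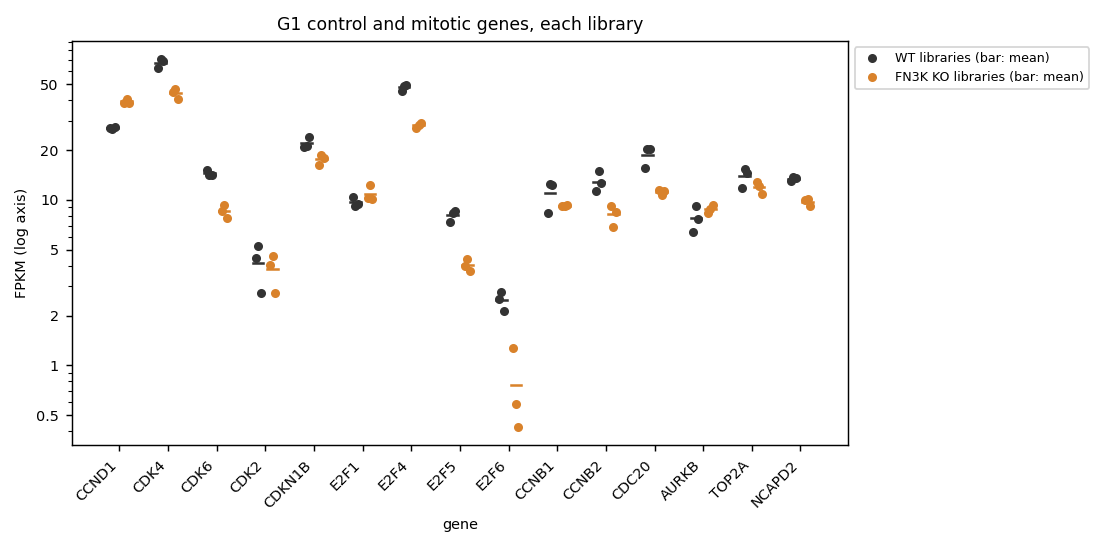
FPKM on a log axis of 15 genes of G1 control and mitosis in the 3 WT and 3 KO libraries, with bars at the means. CCND1 is higher in KO, CDK4, CDK6, E2F4, E2F5, E2F6, CCNB2, CDC20 and NCAPD2 are lower without overlap, and CDK2, E2F1, CCNB1, AURKB and TOP2A overlap.

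Of the genes of G2 and mitosis, cyclin B2 and CDC20 were lower, while cyclin B1 did not pass. CCNB2, cyclin B2, had 11.2, 14.9 and 12.6 FPKM in WT and 9.23, 6.85 and 8.45 FPKM in KO (log2 fold change -0.60, standard error 0.13, limma adjusted p = 0.0038). CDC20, which turns on the anaphase-promoting complex APC/C, had 15.5, 20.2 and 20.3 FPKM in WT and 11.5, 10.8 and 11.3 FPKM in KO (log2 fold change -0.68, standard error 0.10, limma adjusted p = 0.00061). Both had a KO group wholly below the WT group. CCNB1, cyclin B1 and the usual partner of CDK1, had 8.33, 12.5 and 12.3 FPKM in WT and 9.14, 9.24 and 9.32 FPKM in KO, so that WT replicate 1 was below the KO libraries and the other WT libraries above them (log2 fold change -0.21, standard error 0.14, limma adjusted p = 0.21). Without WT replicate 1 it was called lower (-0.39). The mean level of CCNB2 was 1.17 times that of CCNB1 in WT and 0.885 times in KO. With the library adjustment of Ballgown neither CCNB2 (-0.61, adjusted p = 0.25) nor CDC20 (-0.47, adjusted p = 0.16) was called.

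The promoters of CDC20 and CCNB2 are shown because both carry the letters known from genes of G2 and mitosis, with the same capitals and windows as above.
CDC20, chr1:43358731-43358980, plus strand: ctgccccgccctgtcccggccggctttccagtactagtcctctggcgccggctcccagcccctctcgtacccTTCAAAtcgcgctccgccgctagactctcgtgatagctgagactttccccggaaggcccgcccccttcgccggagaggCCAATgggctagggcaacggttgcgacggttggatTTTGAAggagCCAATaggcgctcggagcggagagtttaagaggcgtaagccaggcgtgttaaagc
CCNB2, chr15:59104896-59105145, plus strand: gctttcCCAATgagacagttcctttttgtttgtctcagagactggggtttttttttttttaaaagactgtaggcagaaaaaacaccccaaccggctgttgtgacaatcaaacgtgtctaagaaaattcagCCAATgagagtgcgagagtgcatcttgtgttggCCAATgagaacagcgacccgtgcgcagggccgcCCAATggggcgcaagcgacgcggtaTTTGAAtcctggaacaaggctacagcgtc
CDC20 held CHR letters at bases 178 to 173 and 65 to 60 before the start and CCAAT at bases 100 to 96 and 55 to 51. CCNB2 held CCAAT 4 times, at bases 244 to 240, 120 to 116, 87 to 83 and 54 to 50, and CHR letters at bases 29 to 24. E2F letters were not found in either window. CHR letters stood in 4 of 15 windows of lower genes, in 2 of 8 windows of higher genes and in 4 of 18 windows of genes that did not pass, all of replication and of the cycle.

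PLK3, a polo-like kinase of the stress response, had 1.73, 2.58 and 2.01 FPKM in WT and 3.45, 3.42 and 5.26 FPKM in KO (log2 fold change 0.69, standard error 0.21, limma adjusted p = 0.022), and its call was lost without WT replicate 1, WT replicate 3 or KO replicate 3. CDC14B, a phosphatase that counteracts CDKs, had 7.14, 6.77 and 7.08 FPKM in WT and 4.62, 4.68 and 2.29 FPKM in KO (log2 fold change -0.76, standard error 0.21, limma adjusted p = 0.012), with KO replicate 3 well below the other KO libraries. The transcript listed for CDC14B is annotated as a target of nonsense-mediated decay. AURKB, the kinase of the chromosomal passenger complex, had 6.41, 9.13 and 7.68 FPKM in WT and 8.35, 8.77 and 9.30 FPKM in KO and did not pass (log2 fold change 0.18, standard error 0.12, limma adjusted p = 0.24). MKI67, AURKA and PLK1 are also not among the names listed, so the usual marker of proliferation was not analysed here.

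Among the APC/C subunits, CDC16 was lower at 8.99, 7.38 and 7.93 FPKM in WT and 5.62, 5.89 and 7.06 FPKM in KO (log2 fold change -0.34, standard error 0.12, limma adjusted p = 0.032), a call lost without any of WT replicate 1, WT replicate 3, KO replicate 1 and KO replicate 2. CDC27 had 8.52, 9.60 and 9.68 FPKM in WT and 9.40, 11.9 and 11.3 FPKM in KO (log2 fold change 0.20, standard error 0.10, limma adjusted p = 0.12), and passed as higher when libraries were centred (0.27, adjusted p = 0.029), where CDC16 did not pass (-0.27, adjusted p = 0.085). A difference between the 2 subunits was not tested.

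Of 5 listed centromere and CDCA genes 3 were lower (60%), where 36.5% of all loci were lower. CENPH, an inner kinetochore protein, had 2.22, 3.40 and 3.41 FPKM in WT and 1.48, 0.924 and 1.27 FPKM in KO (log2 fold change -0.84, standard error 0.25, limma adjusted p = 0.020). CENPT, which links centromeric DNA to the outer kinetochore, had 7.52, 5.17 and 8.31 FPKM in WT and 4.82, 3.99 and 3.54 FPKM in KO (log2 fold change -0.63, standard error 0.18, limma adjusted p = 0.014), but its listed transcript keeps an intron and shares exonic positions with genes on the other strand. CENPV had 32.3, 36.5 and 39.3 FPKM in WT and 27.2, 31.8 and 29.6 FPKM in KO (log2 fold change -0.28, standard error 0.08, limma adjusted p = 0.020). All 3 calls were lost without WT replicate 3, that of CENPH also without WT replicate 2, that of CENPT without KO replicate 3, and that of CENPV without WT replicate 2, KO replicate 1 or KO replicate 3. The call of CENPV was lost without the variance trend as well (adjusted p = 0.052). CENPO and CDCA4 had log2 fold changes of -0.01 and 0.01 and did not pass. CENPH lies beside CCNB1 and CDK7 on chromosome 5, so these 3 genes are neighbours.

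Condensin and topoisomerase II fold and untangle mitotic chromosomes. NCAPD2, a condensin I subunit, had 12.9, 13.7 and 13.6 FPKM in WT and 9.96, 10.1 and 9.21 FPKM in KO (log2 fold change -0.42, standard error 0.07, limma adjusted p = 0.0013). TOP2B, the topoisomerase II that non-dividing cells also use, had 16.2, 16.3 and 17.0 FPKM in WT and 12.6, 12.4 and 12.7 FPKM in KO (log2 fold change -0.37, standard error 0.06, limma adjusted p = 0.0012). Neither gene had groups that overlapped, and TOP2B was 1 of the 3 genes still called lower under the Ballgown covariate. TOP2A, the isoform of dividing cells, had 11.7, 15.4 and 14.5 FPKM in WT and 12.8, 12.1 and 10.9 FPKM in KO (log2 fold change -0.20, standard error 0.11, limma adjusted p = 0.14), and its direction depended on the model (0.0014 with the library adjustment). NCAPH2 did not pass (log2 fold change -0.24, standard error 0.11, limma adjusted p = 0.084). SMC4 was listed at 0 in 4 of the 6 libraries, with 3.16 FPKM in WT replicate 1 and 0.964 FPKM in KO replicate 2, so its value of -0.36 rests on single libraries. KIF22, a chromosome-arm kinesin and the 1 listed mitotic kinesin of 14, had means of 14.7 ± 1.79 FPKM in WT and 14.8 ± 1.07 in KO (SD, n = 3), which differed by 0.01 on the log2 scale (standard error 0.10).

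The remaining 17 genes share names with the cycle but were classed by other roles, and 4 were higher (23.5%) and 8 lower (47.1%). Over all loci these shares were 21.2% and 36.5%. CDK8, the kinase of the Mediator complex, had 4.30, 5.95 and 5.27 FPKM in WT and 2.81, 2.74 and 1.97 FPKM in KO (log2 fold change -0.82, standard error 0.18, limma adjusted p = 0.0042). CDK7, the kinase of TFIIH that also activates other CDKs, was lower (-0.30 on the log2 scale, standard error 0.08) and CDK16 was lower as well (-0.24, standard error 0.07), and both calls were lost without WT replicate 2 or WT replicate 3, and that of CDK16 also without KO replicate 1. CDK5, best known from neurons, had 3.91, 4.47 and 3.86 FPKM in WT and 7.17, 8.41 and 7.85 FPKM in KO (log2 fold change 0.79, standard error 0.11, limma adjusted p = 0.00045); its exons overlap SLC4A2 on the other strand. CDK18 did not pass. The transport kinesins KIF5B (log2 fold change -0.45, standard error 0.08, limma adjusted p = 0.0017) and KIF3B (log2 fold change -0.39, standard error 0.11, limma adjusted p = 0.012) were both lower, the call of KIF3B being lost without WT replicate 3.

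Of the 10 genes that match by name only, 3 were higher (30%) and 3 lower (30%), where 21.2% of all loci were higher and 36.5% lower. CDC42, the small GTPase of cell polarity, had 50.9, 49.3 and 47.8 FPKM in WT and 67.6, 64.8 and 66.3 FPKM in KO (log2 fold change 0.42, standard error 0.05, limma adjusted p = 0.00018), and kept its call with the library adjustment of Ballgown. Its effectors diverged, with CDC42EP2 at 0.55, CDC42EP1 at -0.34 and CDC42EP4 at -0.12, the last not past 0.05. CDC42EP1 was the most abundant of the 65 genes in WT at 111 ± 10.8 FPKM (SD, n = 3). KIF1BP, a kinesin-binding protein, had 3.81, 4.15 and 4.39 FPKM in WT and 7.97, 7.69 and 8.12 FPKM in KO (log2 fold change 0.80, standard error 0.11, limma adjusted p = 0.00027). CDKN2AIP, a protein that binds ARF, had 9.44, 9.81 and 9.69 FPKM in WT and 6.63, 6.53 and 5.85 FPKM in KO (log2 fold change -0.54, standard error 0.09, limma adjusted p = 0.00098). CENPBD1P1, a transcribed pseudogene, was lower at -0.45, a call lost without WT replicate 2, WT replicate 3 or KO replicate 1, while CDC37, CDC123 and CDC42BPB did not pass.

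Genes that work with the listed ones but carry other names were taken from 6 lists by function, in which 61 of 182 genes were listed. In the list of fork and licensing partners, 6 of 12 listed genes were higher (50%) and 2 lower (16.7%), where 21.2% of all loci were higher and 36.5% lower. The median log2 fold change was 0.27 in this list and -0.14 over all loci. FEN1, the nuclease that trims Okazaki fragments on PCNA, had 4.61, 5.06 and 5.04 FPKM in WT and 35.7, 32.1 and 32.4 FPKM in KO (log2 fold change 2.54, standard error 0.08, limma adjusted p = 5e-08). It was the 1 gene of this list called with the library adjustment of Ballgown. Its exons (chromosome 11 from 61792637 to 61797244) overlap FADS2 on the same strand and TMEM258 on the other, and the neighbouring desaturase FADS1 was higher as well (1.52 on the log2 scale, standard error 0.08, limma adjusted p = 1.4e-06), while TMEM258 was lower at -0.49. FADS2 is not among the names listed, so fragments of FEN1 and FADS2 cannot be told apart in this level. UHRF1, which reads hemimethylated DNA behind the fork, had 2.77, 1.52 and 2.45 FPKM in WT and 5.06, 7.74 and 6.98 FPKM in KO (log2 fold change 1.23, standard error 0.21, limma adjusted p = 0.0011). GMNN, the licensing inhibitor geminin, had a log2 fold change of 0.60, SAMHD1 one of 0.44 and RNASEH2A one of 0.40, and these 3 passed 0.05. DCTPP1 (log2 fold change -0.30, standard error 0.10, limma adjusted p = 0.030) and DTYMK (-0.24), both of nucleotide metabolism, were lower. The call of DCTPP1 was lost in 4 of the 6 fits that each left out 1 library (WT replicates 2 and 3 and KO replicates 1 and 3), and in this list 3 calls were lost in at least 1 such fit.

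In the cohesin, the G1 control and the APC/C and SCF lists the share of lower genes was above the 36.5% of all loci, by a small margin for the last. The list of p53 targets, described at the end, was also above it, by less (37.5%). With the library adjustment of Ballgown the only genes still called in these lists were PDS5A (-0.41) and RBBP4 (-0.30), both lower. Of 4 listed cohesin genes 4 were lower (100%), from MAU2 (log2 fold change -0.74, standard error 0.13, limma adjusted p = 0.0015), which helps to load the ring on DNA, to SMC3 (log2 fold change -0.22, standard error 0.07, limma adjusted p = 0.026), a core subunit whose call was lost with centring (-0.15, adjusted p = 0.071) and without any 1 of WT replicates 2 and 3 and the 3 KO replicates, with WAPL at -0.53 and PDS5A at -0.46 between them. Of 9 genes of G1 control, DREAM and checkpoints 1 was higher and 5 lower (55.6%). MYBL2, B-MYB of the MuvB complex, had 7.96, 10.7 and 10.1 FPKM in WT and 13.4, 13.3 and 13.6 FPKM in KO (log2 fold change 0.46, standard error 0.10, limma adjusted p = 0.0054), whereas LIN52, a MuvB subunit, had 4.56, 6.45 and 6.17 and 3.66, 3.68 and 2.62 FPKM (log2 fold change -0.64, standard error 0.17, limma adjusted p = 0.012), a call lost without WT replicate 2 (adjusted p = 0.051). MAX, RBBP4, RBL2 and RBBP7 were the other lower genes, from -0.62 to -0.18. Of 12 further APC/C and SCF genes 2 were higher and 5 lower (41.7%), where the median log2 fold change was -0.10, or -0.0082 with the library adjustment of Ballgown. ANAPC11, a small catalytic subunit of the APC/C, was higher at 6.85, 9.72 and 7.94 FPKM in WT and 11.3, 12.6 and 13.6 FPKM in KO (log2 fold change 0.57, standard error 0.12, limma adjusted p = 0.0041). SKP2, the F-box protein that marks p27 for destruction, had 5.90, 6.31 and 5.65 FPKM in WT and 10.8, 8.92 and 9.02 FPKM in KO (log2 fold change 0.60, standard error 0.10, limma adjusted p = 0.0012). ANAPC16 had 8.31, 8.18 and 4.07 FPKM in WT and 2.72, 2.33 and 4.96 FPKM in KO (log2 fold change -0.85, standard error 0.29, limma adjusted p = 0.030), with overlapping groups and a call lost with centring and without WT replicate 1, WT replicate 2, KO replicate 1 or KO replicate 2, and FBXO5, the APC/C inhibitor EMI1, had a log2 fold change of -0.74.

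**Figure D4:**
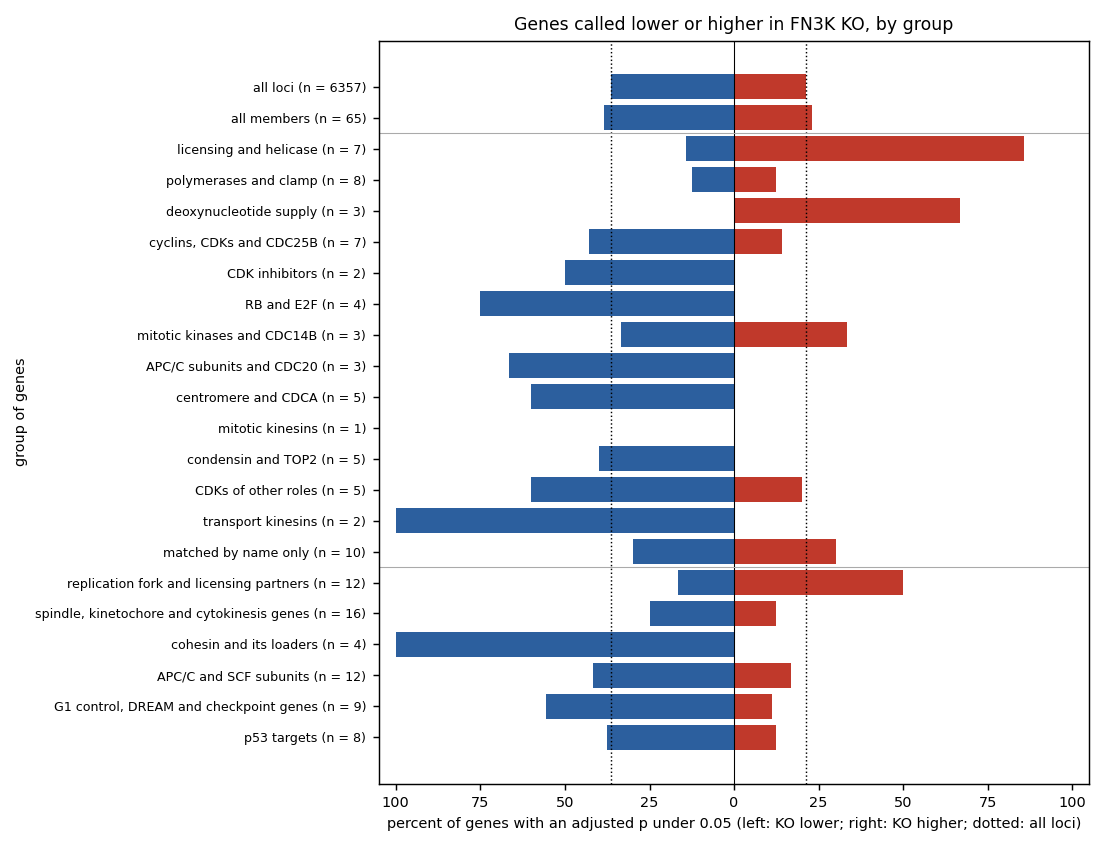
Percent of genes called lower (left, blue) and higher (right, red) in KO for all loci, all 65 genes, each role class and 6 lists of genes outside the naming rule, with n in the labels and dotted lines at the shares of all loci (36.5% and 21.2%). The 65 genes together sit near those lines, the licensing and helicase class reaches 85.7% higher, and the RB and E2F class 75% lower.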

How the data were processed

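RNA from HepG2 WT and FN3K KO cells (3 libraries each) was captured on oligo(dT) beads per the labels. The authors mapped reads with HISAT2 to GRCh38.p5, assembled loci with StringTie 2.0.6 (per the submitters' processing notes) and deposited FPKM values; strand and the filter on loci are not given in the sources used here. Values were tested as log2(FPKM + 1) over all 6357 loci in R 4.3.3 with limma 3.58.1 (lmFit, eBayes with a variance trend), unpaired, with Benjamini-Hochberg adjustment; this scale understates changes at low FPKM. The scripts were tested on simulated data. Members and lists were chosen with earlier results of these data known. Genes were named where they were the lowest and highest called fold changes of a class or list, or belonged to a set of standard cycle genes; other names complete a list, and 1 gene of a list is not reported here. KIF1BP was assigned its class after the names were seen. Coordinates came from GENCODE version 29 by transcript identifier (4897 matched). Alternatives were a pseudocount of 0.1, a mean of at least 1 FPKM, 75th percentile scaling, centring on the median of all loci, no variance trend, the library adjustment of Ballgown in a linear model with an ordinary t-test (no eBayes), named loci only, a replicate block, and each library left out.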

Additional observations from a re-analysis of the deposited data

How the results depend on the processing

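The call of FN3K as lower and the sign of the median log2 fold change of the 65 genes were unchanged under all 14 alternatives tried. With the library adjustment of Ballgown 9 genes were higher and 3 lower, the median of the 65 genes was -0.0905, and 2 of the 6 lists had a median above 0 in place of 1; no gene called in limma turned direction. It turned CCNB1 to 0.14, POLE4 to 0.20, CDC37 to 0.067 and TOP2A to 0.0014, none of them called. Higher genes made up 37.5% of the calls in limma and 75% with that adjustment (all loci 36.7% and 53.8%). Genes past the fold limit numbered 4 with a pseudocount of 0.1 (CDK8 and CENPH in addition) and 1 with a common 75th percentile or with centring, where the median of the 65 genes was -0.10 with centring. With each library left out in turn, from 14 to 16 genes were higher, from 16 to 28 lower, and 1 or 2 passed the fold limit. WT replicate 3 moved the lower genes most, to 16. Of the 40 calls, 28 held in all 6 of these fits and 12 were lost in at least 1. Of the calls over all loci (1348 higher and 2322 lower), 948 were lost in at least 1. The cause of these changes was not tested. Whether the replicate numbers pair the libraries is not given in the sources used here. Deviations from the group means of libraries with the same number correlated at 0.0096, 0.0061 and 0.046 across loci. Such values show little shared deviation and cannot show how the plates were handled. With a replicate block 16 genes were higher and 25 lower, POLD4 being added. Unknown depth and the pseudocount limit low levels such as MCM6 in WT, E2F6 in KO and SMC4.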

Other observations

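Of 16 listed spindle genes outside the naming rule, 2 were higher (12.5%) and 4 lower (25%). Both shares were below those of all loci (21.2% higher and 36.5% lower). The median log2 fold change of the list was -0.15, or 0.044 with the library adjustment of Ballgown. Of 3 listed tubulins 2 were higher. TUBB, a beta tubulin, had 98.8, 101 and 106 FPKM in WT and 194, 189 and 207 FPKM in KO (log2 fold change 0.94, standard error 0.06, limma adjusted p = 3.4e-06). TUBA1B, an alpha tubulin, had 60.5, 65.7 and 67.8 FPKM in WT and 107, 103 and 119 FPKM in KO (log2 fold change 0.76, standard error 0.07, limma adjusted p = 3.3e-05). TUBG1, the gamma tubulin that nucleates microtubules, had 58.9, 58.2 and 62.2 FPKM in WT and 63.7, 60.1 and 71.7 FPKM in KO and did not pass (log2 fold change 0.12, standard error 0.07, limma adjusted p = 0.17). Tubulin genes have near-identical copies, so the level of each is uncertain. UBE2C, the ubiquitin-conjugating enzyme of the APC/C, had 13.5, 16.6 and 17.1 FPKM in WT and 6.19, 5.38 and 5.60 FPKM in KO (log2 fold change -1.31, standard error 0.11, limma adjusted p = 1.6e-05). HMMR, BIRC5 and CKAP5 were also lower, at -0.96, -0.42 and -0.31, and PTTG1, TPX2 and MAD1L1 did not pass. TUBB and UBE2C were also called with the library adjustment of Ballgown.

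Genes that p53 is known to induce gave no common direction. Of 8 listed of 25, 1 was higher (12.5%) and 3 lower (37.5%), with a median log2 fold change of -0.21. Over all loci 21.2% were higher and 36.5% lower, with a median of -0.14, so the lower share was near that of all loci. SESN2, a sestrin of the stress response, had 16.1, 18.8 and 18.7 FPKM in WT and 10.7, 13.6 and 9.93 FPKM in KO (log2 fold change -0.61, standard error 0.11, limma adjusted p = 0.0020). AEN and TNFRSF10B were lower at -0.52 and -0.45. GADD45A, a growth arrest gene, had 24.02, 27.9 and 26.8 FPKM in WT and 28.5, 38.7 and 33.2 FPKM in KO (log2 fold change 0.33, standard error 0.11, limma adjusted p = 0.025), a call lost without the variance trend (adjusted p = 0.063) and without any library but KO replicate 1. BAX and FDXR did not pass.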
